A study of Mus musculus with 12 samples.

Results

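The genes described here are 9 members of the apoptosis machinery, chosen by symbol from the deposited tables: the survival genes Bcl2, Bcl2l1 and Mcl1, the effector genes Bax and Bak1, the BH3-only genes Bcl2l11 and Bbc3, and the initiator caspase genes Casp8 and Casp9. All 9 were measured in both T cell types studied, among 10405 genes listed for regulatory T cells and 9886 listed for conventional T cells. RNA was sequenced in 12 libraries from FOXP3-IRES-GFP mice (B6.Cg-Foxp3tm2Tch/J), whose Foxp3 locus also encodes a green fluorescent protein. The cells were CD4+CD25+FOXP3+ regulatory T cells (Treg) and naive CD4+ conventional T cells (Tcon), each from spleen or lymph node. Treated mice had received the stapled alpha-helical peptide SAH-FOXP3(229-259)C, called SAH here, at 25 mg/kg by daily intraperitoneal injection over 2 days. Control mice had received vehicle, named DMSO in the library titles, on the same schedule. Each cell type had 2 SAH libraries (05 and 06) and 1 vehicle library (04) from spleen, and 2 SAH libraries (02 and 03) and 1 vehicle library (01) from lymph node. The reporter allele was common to all groups, so no group carried an unmodified Foxp3 locus. The sources used here give neither the ages of the mice, nor any pooling of animals, nor the gates of the cell sort. They do not state that libraries came from separate mice either, and the p-values cover the spread between libraries alone, which may be technical.

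The mitochondrial pathway of apoptosis is set by contacts between BCL2 family proteins. BCL2, BCL-XL (the product of Bcl2l1) and MCL1 hold the pore-forming proteins BAX and BAK and the BH3-only proteins in check, while BIM (Bcl2l11) and PUMA (Bbc3) are BH3-only proteins that bind the survival proteins and free the pore formers. Pores in the outer mitochondrial membrane release cytochrome c, which assembles with APAF1 and activates caspase 9, whereas caspase 8 is activated at death receptors such as FAS. In mouse T cells, BCL2 is maintained by IL-7 receptor signals, MCL1 is required for the survival of Treg, and BIM restrains lymphocyte numbers.

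Promoter sequence was read for all 9 members from RefSeq (GRCm38.p6, the build also called mm10), as the 250 bases before each of 14 annotated starts. Shown here are the promoters of Casp9 and Bcl2, the members with the called SAH difference and with opposite organ differences below, and the promoters of Bcl2l11 and Bbc3 that hold a forkhead match, in lower case with matches in capitals. The Casp9 promoter lies at chr4:141793362-141793611 on the plus strand, and the Bcl2 promoter at chr1:106714291-106714540 on the minus strand. The Bcl2l11 promoter is the first of 2 at chr2:128125788-128126037, and the Bbc3 promoter the second of 3 at chr7:16310011-16310260, both on the plus strand.
Casp9: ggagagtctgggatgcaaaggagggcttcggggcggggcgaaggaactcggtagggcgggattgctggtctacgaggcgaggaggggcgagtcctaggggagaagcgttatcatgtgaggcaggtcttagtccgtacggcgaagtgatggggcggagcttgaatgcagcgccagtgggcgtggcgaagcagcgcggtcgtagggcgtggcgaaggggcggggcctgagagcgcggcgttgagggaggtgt
Bcl2: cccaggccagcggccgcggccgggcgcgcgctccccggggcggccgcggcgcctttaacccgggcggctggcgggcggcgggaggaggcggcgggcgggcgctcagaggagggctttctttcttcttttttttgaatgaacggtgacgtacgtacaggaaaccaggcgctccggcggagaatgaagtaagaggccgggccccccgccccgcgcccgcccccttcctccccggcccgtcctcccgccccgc
Bcl2l11: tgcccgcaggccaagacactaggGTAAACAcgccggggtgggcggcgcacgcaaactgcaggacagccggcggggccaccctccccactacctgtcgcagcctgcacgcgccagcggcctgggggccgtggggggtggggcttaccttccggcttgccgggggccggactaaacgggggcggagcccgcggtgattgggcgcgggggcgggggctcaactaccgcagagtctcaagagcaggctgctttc
Bbc3: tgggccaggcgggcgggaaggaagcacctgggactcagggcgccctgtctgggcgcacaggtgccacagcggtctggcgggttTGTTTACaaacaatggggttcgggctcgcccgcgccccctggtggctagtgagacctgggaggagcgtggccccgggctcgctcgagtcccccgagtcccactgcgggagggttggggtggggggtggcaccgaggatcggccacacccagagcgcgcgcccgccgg
The letters TGTTTAC, a forkhead motif, were searched on both strands and begin at base 24 of the Bcl2l11 sequence, on its opposite strand, and at base 84 of the Bbc3 sequence. They occur in 3.17% of the 32536 distinct promoters of the table. The heat shock element letters TTCNNGAA, present in 7.19% of promoters, were in none of the 14 member promoters. The p53 decamer, in 7.12% of promoters, matched once, in the Bax promoter at base 50. No motif overlapped another, and a match describes letters in this window and not binding.

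Depth was 36442420 to 48888678 reads per library in the listed genes, as rebuilt from the deposited values, and 1 read was worth at most 0.02667 CPM. Libraries of a cell type correlated at 0.985 or more, and the 2 SAH libraries of each organ held different reads, with a chi-square of 9.16 to 20.92 per degree of freedom. T cell markers summed to 1850.3 to 1907 CPM in Treg and 2136 to 2321 CPM in Tcon, with 4 of 5 listed genes measured. Treg markers (Foxp3, Il2ra, Ctla4, Ikzf2 and Tnfrsf18) summed to 3881 to 4397 CPM in Treg and 236 to 286 CPM in Tcon. The tables of the cell types had been normalized separately, so levels are set side by side and not tested between Treg and Tcon.

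Levels per kilobase of exon place Mcl1 first and Casp9 last in both cell types. In Treg, the median over 6 libraries was 217 CPM per kb for Mcl1, with a range of 209 to 243, and 73.1 for Casp8, with a range of 67.8 to 75.1. Bcl2 followed at 33.6 CPM per kb (28.9 to 37.0) and Bax at 31.8 (30.8 to 35.3), and these ranges overlapped. Bak1 had 17.7 CPM per kb (16.6 to 18.3), Bbc3 13.9 (11.9 to 16.8), Bcl2l1 11.5 (9.74 to 12.9) and Bcl2l11 9.31 (8.50 to 10.04). Each of these last 4 overlapped its neighbour in the order. Casp9 stood apart at 3.06 CPM per kb (2.73 to 3.53), which rests on 629 to 754 reads per library.

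In Tcon the order was Mcl1 at a median of 269.5 CPM per kb (242 to 301), Casp8 at 58.04 (53.1 to 61.6), Bax at 26.0 (24.0 to 27.5) and Bcl2 at 20.7 (17.2 to 25.6). Bbc3 followed at 17.0 CPM per kb (15.2 to 26.8), Bak1 at 12.3 (10.3 to 14.1), Bcl2l11 at 11.1 (10.4 to 12.8), Bcl2l1 at 3.75 (3.59 to 4.36) and Casp9 at 2.26 (1.94 to 3.15). The ranges of Bax, Bcl2 and Bbc3 overlapped, as did those of Bak1 and Bcl2l11, whereas Bcl2l1 and Casp9 each stood apart. With the length of the longest coding transcript in place of all exons, Bax (57.8 CPM per kb) came before Bcl2 (42.8) and Bcl2l1 (20.5) before Bak1 (17.9) in Treg, and Bcl2l11 (17.7) came before Bak1 (12.4) in Tcon. Exons of 4 members overlap those of another annotated gene: Bcl2 with D630008O14Rik, Bak1 with Ggnbp1 and Casp9 with Cela2a on the opposite strand, and Bax with Gm45808 on the same strand. The library kit was stranded per the labels, but the sources used here do not give the strand setting of the counting, so reads of these pairs cannot be told apart.

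**Figure D1:**
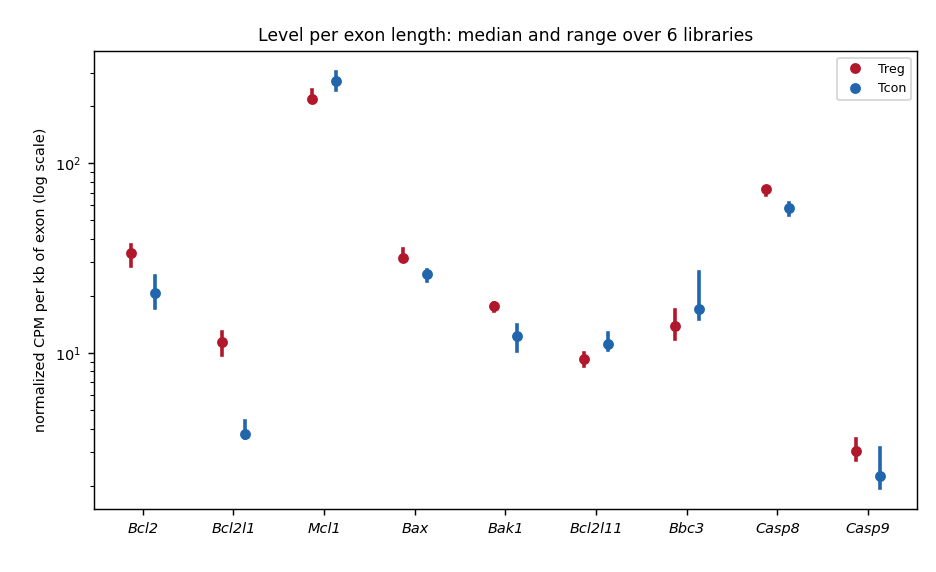
Normalized CPM per kb of exon on a log scale for the 9 members, with Treg left of Tcon. Points are medians and bars the full range over 6 libraries. Mcl1 is highest and Casp9 lowest in both cell types. The Bcl2l1 ranges, 9.74 to 12.9 in Treg and 3.59 to 4.36 in Tcon, do not overlap. Nor do those of Bcl2, Bax, Bak1 and Casp8, also higher in Treg, and of Bcl2l11, higher in Tcon. The cell types were normalized separately, and the share of all genes without overlap was not counted.

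Ratios within a library do not depend on how the tables were scaled. Bcl2 over Bcl2l11, per kb, was 2.88 to 3.87 in Treg and 1.57 to 2.33 in Tcon, so the 6 Treg libraries were all above the 6 Tcon libraries. Bcl2 over Bcl2l1 ran the other way, at 2.70 to 3.32 in Treg and 4.32 to 6.76 in Tcon. Mcl1 over Bcl2l11 was 21.8 to 28.6 in Treg and 22.1 to 27.5 in Tcon, almost the same span. Bax over Bak1 was 1.73 to 1.97 in Treg and 1.87 to 2.39 in Tcon, and these ranges overlapped. Treg libraries thus held more Bcl2l1 RNA per Bcl2 RNA, and more Bcl2 RNA per Bcl2l11 RNA, than Tcon libraries. These ratios are descriptions with no test.

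**Figure D2:**
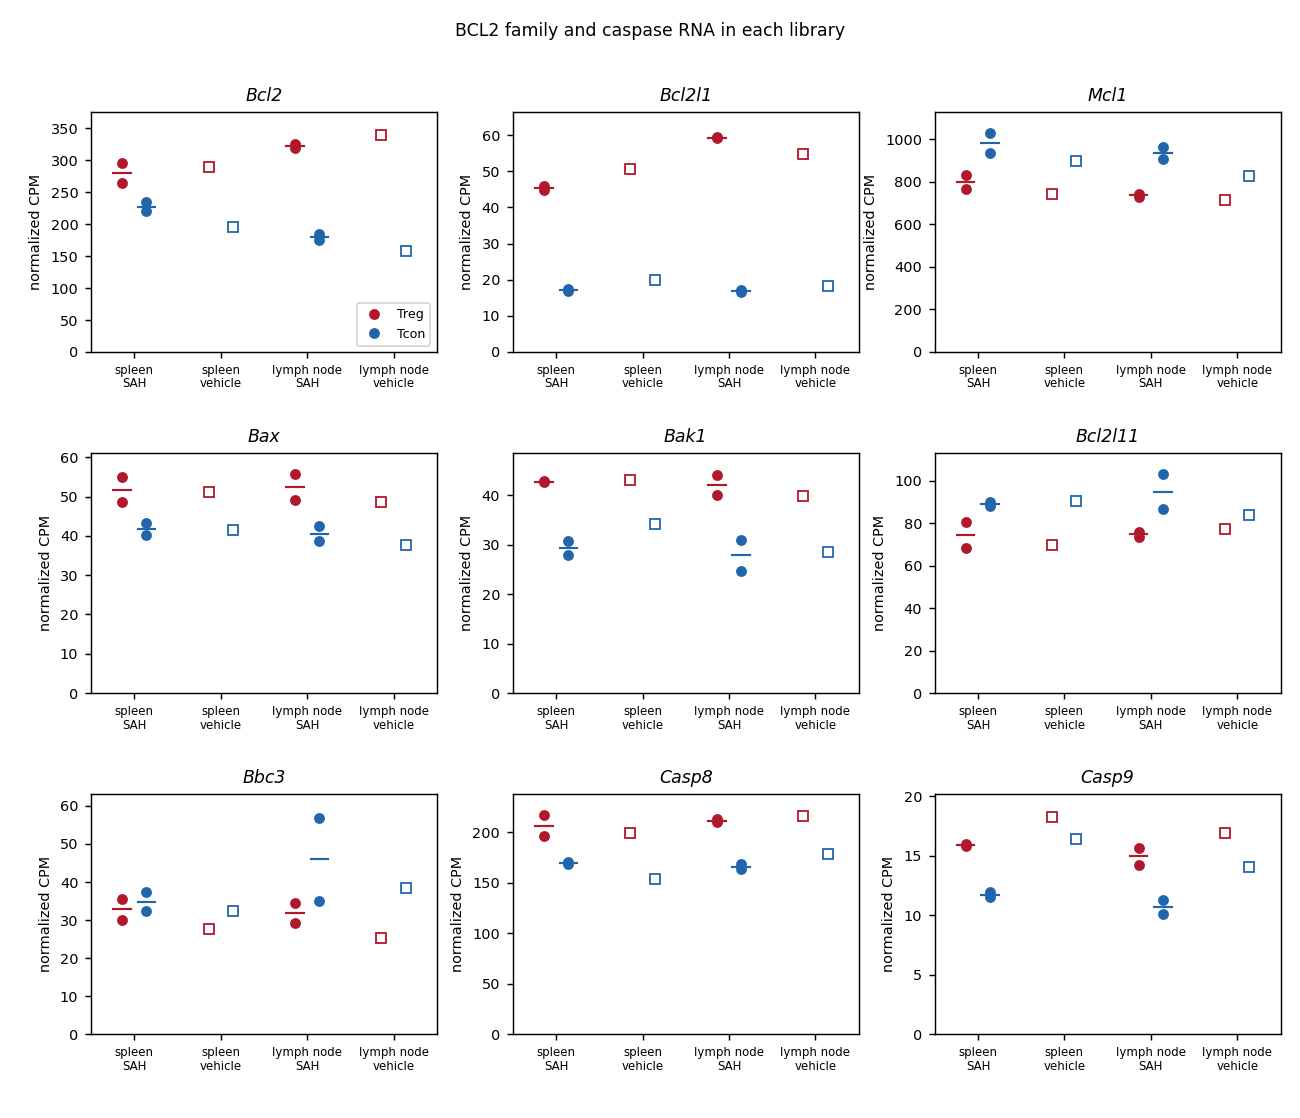
Normalized CPM of each member in each library, with spleen left of lymph node and, within an organ, SAH (filled circles, lines at the mean of 2 libraries) left of vehicle (open squares, 1 library). Treg is red and Tcon blue. Casp9 in Tcon lies at 10.1 to 12.0 CPM in the 4 SAH libraries and at 14.1 and 16.4 CPM in the vehicle libraries.

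After SAH, Casp9 RNA was lower in Tcon, the single call of a member in this comparison in either cell type. Casp9 (chromosome 4, 141793612 to 141815976 in mm10, plus strand) encodes the initiator caspase of the mitochondrial pathway. In Tcon it had 11.5 and 12.0 CPM in spleen SAH libraries against 16.4 CPM in spleen vehicle, and 11.3 and 10.1 CPM in lymph node SAH libraries against 14.1 CPM in lymph node vehicle. All 4 SAH libraries lay below both vehicle libraries, so the groups did not overlap. By the looser measure of every SAH library below the vehicle library of its organ, 16.7% of all genes qualified. The log2 change of Casp9 was -0.41 (SE 0.08, 95% interval -0.59 to -0.23), which is 1.33-fold lower with SAH, at an adjusted p of 0.0479. By organ the log2 change was -0.45 in spleen (95% interval -0.71 to -0.18) and -0.37 in lymph node (-0.64 to -0.10). The authors' deposited table gives Casp9 in Tcon a log2 fold change of -0.44 with a false discovery rate of 0.008 and calls it down.

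The Casp9 call lay close to the threshold and rested on 394 to 692 reads per Tcon library. It was lost without library 01 (log2 change -0.45, adjusted p = 0.208), 03 (-0.38, 0.167), 04 (-0.37, 0.383), 05 (-0.39, 0.115) or 06 (-0.42, 0.0982), and held without library 02. The log2 change was negative in each of these fits. Casp9 was also not called with limma's voom on rebuilt reads (-0.44, adjusted p = 0.0513), with a pseudocount of 5 (-0.32, 0.0504) or without an intensity trend (-0.41, 0.0804). In bulk RNA, fewer cells of a type and less RNA per cell cannot be told apart. None of the marker genes of other cell types was called with SAH in Tcon. Plasma cell markers summed to 155 to 159 CPM in spleen SAH libraries against 231 CPM in spleen vehicle, and to 119 to 136 CPM in lymph node SAH libraries against 106 CPM in lymph node vehicle. The CD8 and NK markers summed to 73.4 to 74.9 CPM in spleen SAH libraries against 102 CPM in spleen vehicle, and to 30.2 to 35.0 CPM in lymph node SAH libraries against 34.9 CPM in lymph node vehicle. Both sums were thus lower with SAH in spleen, and their part in the result was not tested.

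Casp9 was thus 1 of 9 members called with SAH in Tcon, against 1.04% of all genes (103 of 9886). Among the survival genes, Bcl2 (chromosome 1, 106538178 to 106714274, minus strand) had 234 and 221 CPM in spleen SAH libraries against 196 CPM in spleen vehicle, and 176 and 184 CPM in lymph node SAH libraries against 158 CPM in lymph node vehicle. Every SAH library was above the vehicle library of its organ, as for 16.6% of all genes, but the 2 groups overlapped across organs. Its log2 change was 0.20 (95% interval 0.09 to 0.32), at an adjusted p of 0.105. Mcl1 (chromosome 3, 95658788 to 95663176, plus strand) had 1030.3 and 934 CPM in spleen SAH libraries against 899.9 CPM in spleen vehicle, and 909 and 965 CPM in lymph node SAH libraries against 828 CPM in lymph node vehicle. That log2 change of 0.15 (0.02 to 0.28) had an adjusted p of 0.290. Bcl2l1 (chromosome 2, 152780668 to 152831728, minus strand) had 17.3 and 16.9 CPM in spleen SAH libraries against 20.01 CPM in spleen vehicle, and 17.0 and 16.5 CPM in lymph node SAH libraries against 18.3 CPM in lymph node vehicle. All 4 SAH libraries were below both vehicle libraries, with a log2 change of -0.17 (-0.32 to -0.01) and an adjusted p of 0.307. Every SAH library was below the vehicle library of its organ for 16.7% of all genes. These 3 survival genes and Casp9 were the 4 members with an unadjusted p below 0.05, as 14.1% of all genes had.

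The other members did not pass in Tcon. Bax (chromosome 7, 45461697 to 45466898, minus strand), a pore former, ranged from 37.8 to 43.4 CPM over the 6 Tcon libraries, with a log2 change of 0.05 (95% interval -0.09 to 0.20). Bak1 (chromosome 17, 27019810 to 27029009, minus strand), the other pore former, ranged from 24.7 to 34.0 CPM, with a log2 change of -0.13 (-0.33 to 0.08). For the BH3-only gene Bcl2l11 (chromosome 2, 128126038 to 128162547, plus strand) the range was 83.9 to 103 CPM and the log2 change 0.07 (-0.10 to 0.24). Casp8 (chromosome 1, 58795374 to 58847503, plus strand), the death receptor caspase, spanned 154 to 178 CPM, with a log2 change of 0.02 (-0.12 to 0.15). Bbc3 (chromosome 7, 16308393 to 16318205, plus strand) had 32.4 and 37.3 CPM in spleen SAH libraries against 32.3 CPM in spleen vehicle, and 35.0 and 56.9 CPM in lymph node SAH libraries against 38.3 CPM in lymph node vehicle. Library 03, at 56.9 CPM, stood above the other 5, and the log2 change of 0.16 had a wide interval (-0.18 to 0.49).

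In Treg, none of the 9 members passed limma's test of SAH against vehicle, and voom on rebuilt reads also called 0, with 2 members at an unadjusted p below 0.05. Over all genes 0.202% were called (21 of 10405) and 7.04% had an unadjusted p below 0.05. The lowest p among the members belonged to Bbc3, which encodes the BH3-only protein PUMA. It had 30.0 and 35.6 CPM in spleen SAH libraries against 27.6 CPM in spleen vehicle, and 29.2 and 34.4 CPM in lymph node SAH libraries against 25.3 CPM in lymph node vehicle. All 4 SAH libraries lay above both vehicle libraries. Of all genes, 13.4% had every SAH library above the vehicle library of its organ. The log2 change of Bbc3 was 0.28 (SE 0.08, 95% interval 0.10 to 0.46), or 1.21-fold, at an adjusted p of 0.417. The authors' deposited table gives 0.29 with a false discovery rate of 0.202 and no call.

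Casp9 in Treg had 16.0 and 15.8 CPM in spleen SAH libraries against 18.3 CPM in spleen vehicle, and 14.2 and 15.7 CPM in lymph node SAH libraries against 16.9 CPM in lymph node vehicle. The 4 SAH libraries were below both vehicle libraries here too, with a log2 change of -0.18 (95% interval -0.35 to -0.01) and an adjusted p of 0.686. Every SAH library was below the vehicle of its own organ for 11.7% of all genes. The difference of the Casp9 change, Treg minus Tcon, was 0.23 (0.00 to 0.46) with an adjusted p of 1.00, so the 2 cell types were not shown to differ. Mcl1 had 830.2 and 768 CPM in spleen SAH libraries against 741 CPM in spleen vehicle, and 729 and 745 CPM in lymph node SAH libraries against 714 CPM in lymph node vehicle. Each SAH library was above the vehicle of its own organ, as for 13.4% of all genes, with a log2 change of 0.08 (-0.04 to 0.20). For the remaining 6 members, the log2 changes in Treg lay between -0.06 (Bcl2) and 0.06 (Bax), and their 95% intervals between -0.17 (Bcl2) and 0.21 (Bax).

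**Figure D3:**
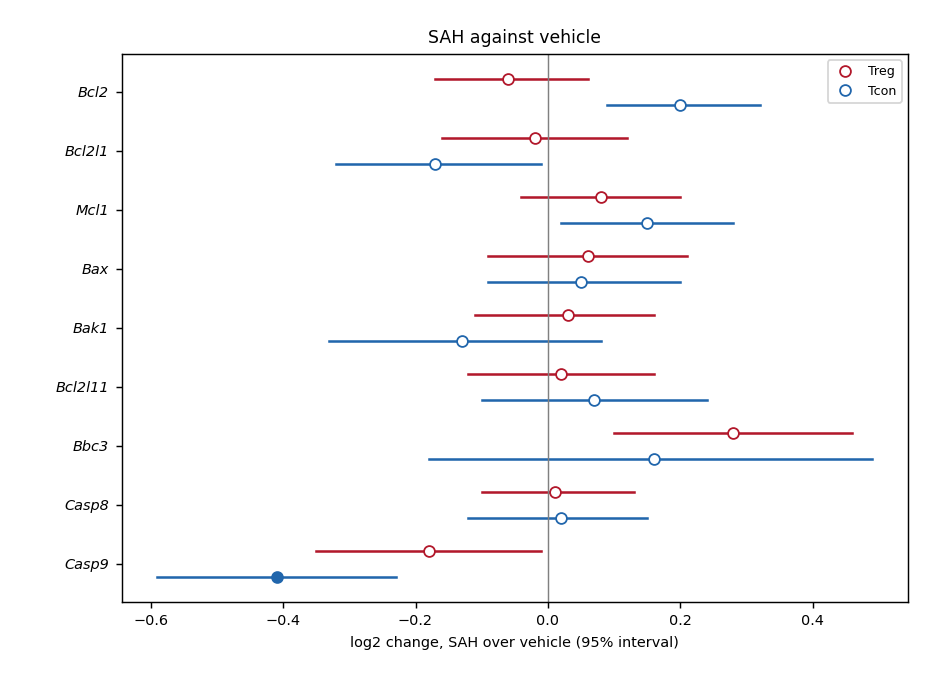
Log2 change of SAH over vehicle for each member, with Treg drawn above Tcon. Points are model estimates, lines 95% intervals, and a filled point marks an adjusted p below 0.05. The single filled point is Casp9 in Tcon at -0.41, and the Treg estimate of Casp9 is -0.18.

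Between the cell types, 0 of 9 members differed in their SAH change by limma's interaction test, with 2 at an unadjusted p below 0.05 and 0 with voom. The share of all genes called was 0 (0 of 9784, with 453 at an unadjusted p below 0.05). Bcl2 had the lowest p of the members, with a log2 change of -0.06 in Treg and 0.20 in Tcon and a difference of -0.26 (95% interval -0.42 to -0.10, adjusted p = 0.658). Between organs, 0 of 9 members differed in their SAH change in Treg, against 0.00961% of all genes (1 of 10405, 251 at an unadjusted p below 0.05), and voom called 0 members. The member with the lowest p was Bcl2l1, at 44.7 and 45.8 CPM in spleen SAH libraries against 50.6 CPM in spleen vehicle, and 59.4 and 59.3 CPM in lymph node SAH libraries against 54.9 CPM in lymph node vehicle. Its SAH change was thus -0.16 in spleen and 0.11 in lymph node, a difference of -0.27 (-0.53 to -0.01, adjusted p = 1.00). In Tcon the count was also 0 of 9, against 0 of all 9886 genes (504 at an unadjusted p below 0.05) and 0 members with voom. Casp8 had the lowest p there, with 170.0 and 168 CPM in spleen SAH libraries against 154 CPM in spleen vehicle, and 168 and 163 CPM in lymph node SAH libraries against 178 CPM in lymph node vehicle (difference 0.24, 0.01 to 0.47, adjusted p = 0.913).

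Between organs, the survival gene Bcl2 moved in opposite directions in the 2 cell types: lower in spleen in Treg and higher in spleen in Tcon. In Treg, Bcl2 had 296 and 265 CPM in SAH and 289 CPM in vehicle libraries of spleen, against 326 and 320.0 CPM in SAH and 339 CPM in vehicle libraries of lymph node. In Tcon it had 234 and 221 CPM in SAH and 196 CPM in vehicle libraries of spleen, against 176 and 184 CPM in SAH and 158 CPM in vehicle libraries of lymph node. No spleen library overlapped a lymph node library in either cell type. In Treg, 15.1% of all genes had every spleen library below every lymph node library. In Tcon, the share of all genes with every spleen library above was smaller than 15.1%. It was larger than the 9.33% of all Tcon genes with every spleen library below. Bcl2 was 1.16-fold lower in spleen Treg (log2 difference -0.21, SE 0.05, adjusted p = 0.0109) and 1.26-fold higher in spleen Tcon (0.33, SE 0.05, adjusted p = 0.00344). The difference of these differences, Treg minus Tcon, was -0.54 (SE 0.07, 95% interval -0.69 to -0.39, adjusted p = 0.000487). It was called in all 23 fits run, those without each of the 12 libraries included, at -0.59 to -0.50. The separate Treg call was lost without library 01 (adjusted p = 0.0948), 02 (0.0754) or 04 (0.0944) and without an intensity trend (0.0706).

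Bcl2l1, the gene of BCL-XL, was lower in spleen than in lymph node in Treg. It had 44.7 and 45.8 CPM in SAH and 50.6 CPM in vehicle libraries of spleen, against 59.4 and 59.3 CPM in SAH and 54.9 CPM in vehicle libraries of lymph node. The organs did not overlap, as for 15.1% of all genes in this direction. The log2 difference of -0.29 (SE 0.06, 95% interval -0.43 to -0.16, adjusted p = 0.00497) is 1.23-fold lower in spleen. Without library 02 it was -0.27 and not called (adjusted p = 0.0605). In Tcon, Bcl2l1 had 17.3 and 16.9 CPM in SAH and 20.01 CPM in vehicle libraries of spleen, against 17.0 and 16.5 CPM in SAH and 18.3 CPM in vehicle libraries of lymph node, and the organs overlapped (log2 difference 0.06, -0.08 to 0.21). The difference between cell types was -0.36 (-0.55 to -0.17) with an adjusted p of 0.0676, which did not pass. It did pass without Tcon library 02 (adjusted p = 0.0443), Treg library 01 (0.0307) or Treg library 04 (0.0299).

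Counted over the members, 2 of 9 were called between organs in Treg, both lower in spleen, against 14.7% of all genes (1531 of 10405). In Tcon, 1 of 9 was called, higher in spleen, against 4.73% of all genes (468 of 9886). For the difference between cell types 1 of 9 was called, against 1.46% of all genes (143 of 9784). Mcl1, the third survival gene, had a log2 difference of 0.09 in Treg (95% interval -0.02 to 0.21) and 0.08 in Tcon (-0.04 to 0.21). Bbc3 had 32.4 and 37.3 CPM in SAH and 32.3 CPM in vehicle libraries of spleen Tcon, against 35.0 and 56.9 CPM in SAH and 38.3 CPM in vehicle libraries of lymph node Tcon. Its log2 difference of -0.31 (-0.63 to 0.00) had an adjusted p of 0.287, and without library 02 it was -0.50 with an adjusted p of 0.0217. The pore formers Bax and Bak1, Bcl2l11 and the 2 caspases did not pass in either cell type, with log2 differences between -0.06 (Casp8) and 0.09 (Casp9) in Treg and between -0.05 (Casp8) and 0.15 (Casp9) in Tcon.

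**Figure D4:**
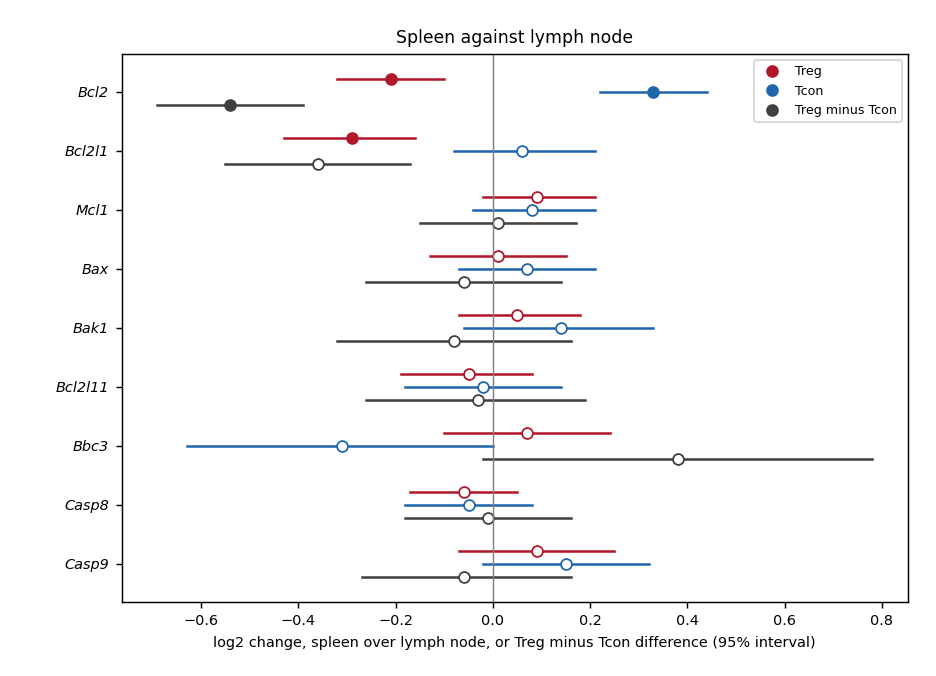
Log2 difference of spleen over lymph node for each member in Treg (red), in Tcon (blue) and as Treg minus Tcon (grey). Points are model estimates, lines 95% intervals, and filled points have an adjusted p below 0.05. Bcl2 lies at -0.21 in Treg and 0.33 in Tcon, with a difference of -0.54, and Bcl2l1 at -0.29 in Treg.

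Markers of other cells also differed between organs. In Treg, the myeloid and dendritic markers summed to 68.0 to 105 CPM in spleen and 29.8 to 32.4 CPM in lymph node, with 5 of 5 measured genes called higher, and the B cell markers to 23.9 to 24.9 CPM in spleen and 16.1 to 17.2 CPM in lymph node. Plasma cell markers summed to 215 to 249.9 CPM in spleen Treg and 107 to 128 CPM in lymph node Treg, led by Jchain (log2 difference 6.03). In Tcon, the CD8 and NK markers summed to 73.4 to 102 CPM in spleen and 30.2 to 35.0 CPM in lymph node, with 5 of 6 measured genes called higher, and in Treg to 29.7 to 30.9 CPM in spleen and 36.3 to 37.0 CPM in lymph node. Of the 4 measured in Treg, Klrb1c (2.02-fold) and Eomes (1.57-fold) were called higher in spleen and Nkg7 (1.75-fold) lower. The myeloid and dendritic markers summed to 44.9 to 51.8 CPM in spleen Tcon and 23.6 to 25.4 CPM in lymph node Tcon. Of these, 1 of 4 measured genes was called higher, Lyz2 (log2 difference 4.03). Plasma cell markers summed to 155 to 231 CPM in spleen Tcon and 106 to 136 CPM in lymph node Tcon, with 2 of 3 called higher. B cell markers summed to 5.39 to 6.85 CPM in spleen Tcon and 2.68 to 3.56 CPM in lymph node Tcon. The defining B cell gene Ms4a1, the CD8 gene Cd8a and the NK gene Ncr1 were not among the listed genes of either table. Other genes of these marker lists were measured in both: Cd79a and Cd22, the CD8 gene Cd8b1, and Nkg7, Klrb1c and Eomes. Of the red cell markers 1 of 6 was listed in Treg, at 2.31 to 28.8 CPM in spleen and 0.600 to 0.784 CPM in lymph node, and 0 of 6 in Tcon. Platelet markers, 1 of 3 listed, summed to 3.06 to 5.43 CPM in spleen and 2.76 to 3.20 CPM in lymph node Treg, and to 2.24 to 2.66 CPM in spleen and 1.97 to 2.68 CPM in lymph node Tcon. Their part in the organ differences of Bcl2 and Bcl2l1, and of the list genes below such as Il2rb and Fasl, was not tested.

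Around the members, genes of the surrounding pathways were counted from lists. With SAH in Treg, 0 of the 73 measured genes of the 7 lists, with the members Bax and Bbc3 left out, were called by limma or with voom. Of these 73 genes, 6 had an unadjusted p below 0.05, beside 7.04% of all genes. The list medians there, with Bax and Bbc3 kept, lay between -0.07 and 0.10, beside 0.00 for all genes. With SAH in Tcon, 3 of 15 measured p53 pathway genes, a list that also holds Bax and Bbc3, were called, all higher: Tnfrsf10b, a TRAIL death receptor (log2 change 0.53, adjusted p = 0.0222), Cdkn1a, the cell cycle inhibitor p21 (0.59, 0.0357), and Sesn2, a stress-induced sestrin (0.47, 0.0469). Tnfrsf10b was also the 1 of 12 death receptor pathway genes called. Among 10 regulators of MCL1, BIM and PUMA, 2 were called, both higher: the stress transcription factors Ddit3 (0.42, 0.0188) and Atf4 (0.34, 0.0231). Over all genes with SAH in Tcon, 1.04% were called and 14.1% had an unadjusted p below 0.05. Tnfrsf10b had 29.4 and 30.3 CPM in spleen SAH libraries against 18.9 CPM in spleen vehicle, and 25.7 and 30.7 CPM in lymph node SAH libraries against 20.7 CPM in lymph node vehicle, with no overlap. Every SAH library was above the vehicle library of its organ for 16.6% of all genes in Tcon. Each of these 5 calls was lost without Tcon library 01, 03, 04 or 06, and all 5 without an intensity trend. With voom on rebuilt reads 3 were called, and Cdkn1a and Sesn2 were not, nor were those 2 when each library was rescaled to the same total. Sesn2 was also not called with a pseudocount of 5. Over the left-out fits the log2 change stayed at 0.42 to 0.64 for Tnfrsf10b, 0.53 to 0.65 for Cdkn1a, 0.41 to 0.55 for Sesn2, 0.37 to 0.46 for Ddit3 and 0.31 to 0.36 for Atf4. Limma and voom each called 0 of the 39 genes of the other 4 lists, of which 6 had an unadjusted p below 0.05. Those lists held 9 other BCL2 family genes, 6 other caspases, 11 apoptosome and inhibitor of apoptosis genes and 13 survival cytokine input genes. The median log2 change in Tcon lay between -0.06 and 0.07 over the 7 lists, beside 0.00 for all genes.

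The SAH change of these list genes, members left out, was also compared between groups. Between Treg and Tcon, 0 of 72 differed by limma or with voom, and 11 had an unadjusted p below 0.05, beside 4.63% of all genes. Between organs, both tools called 0 of 73 in Treg, with 2 at an unadjusted p below 0.05, beside 2.41% of all genes. In Tcon they called 0 of 72, with 8 at an unadjusted p below 0.05, beside 5.10% of all genes.

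Over all genes, 14.7% were called between organs in Treg and 4.73% in Tcon, the background for the list counts below. Between organs, the BH3-only gene Pmaip1 (NOXA) was higher in spleen in both cell types, by 0.48 on the log2 scale in Treg (adjusted p = 0.00213) and by 0.52 in Tcon (adjusted p = 0.0184). It had 114 and 105 CPM in SAH and 104 CPM in vehicle libraries of spleen Treg, against 82.1 and 95.03 CPM in SAH and 58.5 CPM in vehicle libraries of lymph node Treg. In Treg it was the 1 of 10 other BCL2 family genes called. In Tcon 2 of 9 were called, Pmaip1 and Bcl2a1d (0.57, adjusted p = 0.0308). Bcl2a1d, an A1 survival gene, has near-identical copies among which the counting could split reads, so its value is uncertain. In Tcon the Pmaip1 call was lost without library 01 or 04 (log2 difference 0.38 to 0.63 over the left-out fits), and that of Bcl2a1d without 01, 03, 04 or 05 (0.41 to 0.72).

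Among the other caspases, the inflammatory caspase genes Casp1 (0.46, adjusted p = 0.00362) and Casp4 (0.46, 0.0156) were higher in spleen Treg. In Tcon 1 of 6 was called, Casp1 (0.69, adjusted p = 0.0188). Of 11 apoptosome and inhibitor of apoptosis genes, Apaf1, the caspase 9 scaffold, was higher (0.22, adjusted p = 0.0103) and Aifm1 lower (-0.25, 0.0113) in spleen Treg, while limma and voom called 0 in Tcon, with 3 at an unadjusted p below 0.05. The ligand gene Fasl was the 1 of 12 death receptor genes called, higher in spleen in both Treg (0.36, adjusted p = 0.0278) and Tcon (0.52, 0.00369).

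Of 15 p53 pathway genes, 5 were higher in spleen Treg and 2 in spleen Tcon, Cdkn1a among them in both (0.88, adjusted p = 2.1e-06, and 0.54, 0.0131). Cdkn1a had 25.4 and 23.1 CPM in SAH and 21.8 CPM in vehicle libraries of spleen Treg, against 12.6 and 13.3 CPM in SAH and 11.1 CPM in vehicle libraries of lymph node Treg. Besides Pmaip1, the other p53 pathway genes called in Treg were Trp53inp1 (0.26, adjusted p = 0.0110), Mdm2 (0.16, 0.0337) and Sesn1 (0.25, 0.0407). Of 10 regulators of MCL1, BIM and PUMA, Atf4 (0.20, adjusted p = 0.0103) and Fbxw7, an MCL1 ubiquitin ligase subunit (0.18, 0.0483), were higher in spleen Treg, while limma and voom called 0 in Tcon, with 2 at an unadjusted p below 0.05.

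Of the 13 survival cytokine input genes, which encode receptor chains, kinases and transcription factors, 3 were higher and 1 lower in spleen Treg. In spleen Tcon 2 were higher. The IL-2 receptor alpha chain gene Il2ra was lower in spleen Treg (-0.43, adjusted p = 0.000182), while the survival kinase gene Pim1 (0.47, 6.6e-05), the IL-7 receptor gene Il7r (0.29, 0.00987) and Foxo3 (0.19, 0.0359) were higher. Il2ra had 597 and 520.4 CPM in SAH and 589 CPM in vehicle libraries of spleen Treg, against 742 and 788 CPM in SAH and 763 CPM in vehicle libraries of lymph node Treg. In Tcon, Il2rb, the shared IL-2 and IL-15 receptor chain, was 2.75-fold higher in spleen (1.46, adjusted p = 1.62e-05), and Pim1 was higher too (0.31, 0.00398). Il2rb had 105 and 112 CPM in SAH and 127 CPM in vehicle libraries of spleen Tcon, against 48.3 and 38.7 CPM in SAH and 37.0 CPM in vehicle libraries of lymph node Tcon. In the difference between cell types, 2 of 72 list genes, members left out, were called, against 1.46% of all genes (143 of 9784). These were Il2rb (-1.54, adjusted p = 7.12e-06) and Il2ra (-0.87, 0.00244), and both held without each library in turn. Il2ra was low in Tcon, at 4.66 and 6.94 CPM in SAH and 6.90 CPM in vehicle libraries of spleen. Lymph node Tcon had 3.98 and 3.85 CPM in SAH and 4.80 CPM in vehicle libraries.

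Of the 18 list calls between organs in Treg, those of Cdkn1a, Il2ra, Pim1 and Pmaip1 held without each library in turn. The other 14 were lost without library 02, and all of these except Casp1 also without library 01 or 04. Over the left-out fits the log2 difference stayed at 0.34 to 0.55 for Casp1, 0.34 to 0.65 for Casp4, 0.19 to 0.23 for Apaf1 and -0.29 to -0.22 for Aifm1. Without an intensity trend the Treg calls of Atf4, Casp4, Fasl, Fbxw7, Foxo3, Il7r, Mdm2, Sesn1 and Trp53inp1 were lost, and with rescaling to the same total those of Fbxw7, Foxo3, Mdm2 and Sesn1. The Fbxw7 call was also lost with a pseudocount of 5. The log2 difference over the left-out fits was 0.29 to 0.47 for Fasl, 0.21 to 0.38 for Il7r and 0.14 to 0.36 for Sesn1. In Tcon, the calls of Il2rb, Pim1 and Fasl held without each library in turn. The Casp1 call was lost there without library 01, 03 or 04 (0.55 to 0.85) and the Cdkn1a call without 03 or 05 (0.45 to 0.60). Without an intensity trend the Tcon calls of Pmaip1 and Bcl2a1d were lost.

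Genes whose pattern was most like that of a member were ranked by the root mean square difference of log2(CPM + 1) over the 12 libraries, after centring within each cell type, among 7823 genes above 10 CPM in both tables. Nearest to Bcl2 were Map3k8 (0.0733), Cish (0.0978) and Ncapd2 (0.0978), beside a root mean square of 0.160 for Bcl2 itself. For Casp9, with a root mean square of 0.168, they were Clstn1 (0.0509), Mbip (0.0791) and Rab5b (0.0811). Bbc3, at 0.225, had more distant neighbours in H2afx (0.108), Calcrl (0.113) and Ptpn18 (0.124). For Bcl2l1, at 0.130, they were Rfc5 (0.0502), Marveld1 (0.0609) and Ptms (0.0637). The steady members Casp8 (0.0607) and Bax (0.0745) varied least over the libraries.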

How the data were processed

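RNA from 12 libraries was measured by sequencing. Per the submitters' processing notes, TopHat, Bowtie and edgeR were used with build mm10, while no counting program or annotation is named in the sources used here. For Treg and for Tcon the authors deposited a separate table of a normalized signal per gene and library, named CPM in the file headers and totalling 971928 to 1021433 per library. The deposited log2 fold change, the p-values with false discovery rates, and the score that calls a gene up or down are the authors' and are printed only where named. Divided by the worth of 1 read, 100.0% of values lay within 0.1 of an integer. Each listed gene had at least 1.97 CPM in 3 libraries, so genes under that level were not analysed here.

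The logarithm log2(CPM + 1) was modelled with limma 3.58.1 in R 4.3.3 (empirical Bayes with intensity trend, two-sided), requiring 1 CPM in 2 libraries, which removed no gene. Within a cell type, organ and treatment were terms (3 residual degrees of freedom), with an interaction term for organs (2) and 1 model of 12 libraries between cell types (6). Benjamini-Hochberg adjustment ran over every gene tested in a comparison, with calls at an adjusted p below 0.05. The pseudocount of 1 makes the fold changes of low genes too small. Coordinates and exon lengths are from GENCODE for mm10. The text names all members, up to 5 called genes per pathway list and comparison by smallest p, and the 3 genes most like a member. The members, lists and tests were chosen with earlier results of these data known. Alternatives covered the pseudocount, filter, scaling, intensity trend, identical symbols, each library left out and voom on rebuilt reads. Only the fit of SAH against vehicle in Treg was tested on simulated data, and the fits of the other comparisons were not. Some genes of the lists are not reported here.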

Additional observations from a re-analysis of the deposited data

Results flagged for a closer look

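The spleen against lymph node difference of Bcl2 ran in opposite directions in the 2 cell types, and the test of the difference itself passed: Treg minus Tcon was -0.54 on the log2 scale (adjusted p = 0.000487), from -0.21 in Treg and 0.33 in Tcon. Spleen libraries lay below lymph node libraries in Treg, at 265 to 296 CPM against 320.0 to 339 CPM, and above them in Tcon, at 196 to 234 CPM against 158 to 184 CPM. Every spleen library lay below every lymph node library for 15.1% of all genes in Treg. The share with every spleen library above in Tcon lay between 9.33%, the Tcon share below, and 15.1%. The CD8 and NK markers summed to 29.7 to 30.9 CPM in spleen and 36.3 to 37.0 CPM in lymph node Treg, and to 73.4 to 102 CPM in spleen and 30.2 to 35.0 CPM in lymph node Tcon. In Tcon 5 of 6 measured markers were called higher in spleen. In Treg 2 of 4 were called higher (Klrb1c 2.02-fold, Eomes 1.57-fold) and 1 lower (Nkg7 1.75-fold). The part of these markers in the result was not tested.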

How the results depend on the processing

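Of 666 member values under other settings, 654 kept direction and call, 4 lost the call, 3 gained it and 5 reversed; with 1 library left out, 430 of 504 kept both, 9 lost the call, 4 gained it and 61 reversed. Rescaling each library to the same total reversed values near 0: Casp8 with SAH (-0.01 in Treg, -0.03 in Tcon, difference 0.02), Bax between organs in Treg (-0.02) and the Mcl1 organ difference (0.00). It also gave 48 of 76 called genes higher with SAH in Tcon (87 of 103 before) and 718 of 1552 higher in spleen Treg (906 of 1531 before), with medians of all genes shifted by at most -0.05. Of the members, 0 were called with SAH in Tcon without an intensity trend, with a pseudocount of 5 and with voom on rebuilt reads, which was added after seeing the data. Without the trend, 1 was called between organs in Treg. Leaving out 1 library gave 0 to 1 called with SAH in Tcon, 0 to 2 between organs in Treg, 1 to 2 in Tcon and 1 to 2 for the organ difference between cell types.

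With 1 library left out, log2 changes with SAH in Treg ran from -0.16 to 0.11 for Bcl2l1, -0.04 to 0.09 for Bcl2l11, -0.01 to 0.07 for Bak1 and -0.03 to 0.05 for Casp8, and in Tcon from -0.02 to 0.17 for Bcl2l11 and -0.10 to 0.13 for Casp8. Between organs they ran in Treg from -0.13 to 0.00 for Bcl2l11 and -0.03 to 0.07 for Bax, and in Tcon from -0.08 to 0.07 for Bcl2l11 and -0.09 to 0.03 for Casp8. The SAH effect in spleen minus lymph node ran in Treg from -0.06 to 0.10 for Bcl2, -0.20 to 0.04 for Bbc3 and -0.10 to 0.04 for Casp9, and in Tcon from -0.01 to 0.07 for Bcl2, -0.13 to 0.02 for Mcl1, -0.46 to 0.22 for Bbc3 and -0.15 to 0.00 for Casp9. The SAH effect in Treg minus Tcon ran from -0.15 to 0.04 for Bcl2l11, -0.04 to 0.05 for Bax, -0.02 to 0.27 for Bbc3 and -0.12 to 0.12 for Casp8. The organ difference in Treg minus Tcon ran from -0.12 to 0.03 for Bcl2l11, -0.04 to 0.05 for Mcl1 and -0.09 to 0.02 for Casp8. None of these values was called, and the cause was not tested.

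Library numbers are shared by Treg and Tcon, but the labels do not say that they mark mice, and only 2 pairs could be checked (correlation of deviations 0.438 and 0.556). With the replicate number as a block, 1 member was called for the SAH effect in Treg minus Tcon (Bcl2, -0.26, adjusted p = 0.0258) and 3 for the organ difference (Bcl2, Bcl2l1 and Bbc3), with 76 and 703 genes called in all. Without library 01 or 04 the SAH effect rests on 1 organ and its difference between organs could not be fitted. The count tests edgeR and DESeq2 were not run. The deposited values are not counts, and the rebuilt reads were tested with limma only. Vehicle libraries number 1 per organ and cell type, which limits every SAH comparison, and Casp9 has the fewest reads of the members (counting error up to 5.04%).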
